A study of Sus scrofa with 13 samples.

Results

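Most of the genes described here encode the machinery that brings proteins into mitochondria, or channels and carriers of the mitochondrial membranes for small molecules. All probe sets whose platform gene symbol begins with TIMM, TOMM, SLC25 or VDAC were taken as members. This gave 57 of 23999 probe sets and 42 of 6765 named genes on the array. The choice was by symbol alone, so SLC25A17, a peroxisomal carrier, is among them. A gene with several probe sets was led by the one with the highest mean log2 intensity over the 13 arrays. Of the 42 genes, 39 lay above the intensity filter and were tested. The other 3, TOMM34, SLC25A48 and SLC25A51, had leading probe sets below it (mean log2 intensities of 2.60, 2.89 and 2.21 against a filter level of 3.36) and are not compared.

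RNA came from drill biopsies of the hearts of 13 female Sinclair miniswine, a small pig breed, 3 months old at surgery. All of them carried an infarct, made by permanent ligation of diagonal branches of a main coronary artery of the left heart, and biopsies were taken at month 4. The 7 stem cell animals had received 50000000 cells, which the protocol abbreviates as MPCs, in 2 ml saline over 5 sites of the border zone around the infarct, and the 6 saline animals had received 2 ml saline alone. The origin of the cells and the place of each biopsy relative to the infarct are not stated in the labels, and there is no uninjured heart to compare with. Each animal gave 1 array, and the question of the design is whether expression at month 4 differed between the treatments.

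Nearly all mitochondrial proteins are made in the cytosol and imported. The TOM complex of the outer membrane receives them, TIM23 of the inner membrane passes on those with a cleavable presequence, and small TIM chaperones escort hydrophobic proteins across the intermembrane space, among them the SLC25 carriers, which TIM22 inserts. The finished carriers exchange nucleotides, phosphate and metabolites over the inner membrane, and the VDAC porins do so over the outer membrane; in heart muscle this traffic delivers ATP to the contractile apparatus. The roles given below are known mainly from yeast, human and mouse.

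The tissue carried the markers of heart muscle: 15 of 15 measured cardiomyocyte markers lay above the filter, with a mean log2 intensity of 13.70 to 14.03 in stem cell animals and 13.62 to 13.82 in saline animals, and 2 of the 15 had a negative difference (median 0.074, 1 higher at an unadjusted p under 0.05). Fibroblast and scar matrix markers (12 of 13 above the filter) ranged from 8.39 to 10.0 after stem cells and from 8.48 to 10.2 after saline, with 4 of 12 negative (median 0.14, 1 higher at an unadjusted p under 0.05). Macrophage markers (10 of 11) ranged from 6.78 to 7.74 after stem cells and from 7.00 to 8.02 after saline, smooth muscle and pericyte markers (8 of 8) from 9.19 to 10.5 after stem cells and from 9.96 to 10.9 after saline, and endothelial markers (10 of 12) from 7.09 to 8.05 after stem cells and from 7.37 to 8.34 after saline. Of these, 8 of 10 macrophage markers were negative (median -0.23, 2 lower at an unadjusted p under 0.05), as were 6 of 8 smooth muscle and pericyte markers (median -0.25, 2 lower) and 7 of 10 endothelial markers (median -0.15, 1 lower and 1 higher). Over all named genes, by their leading probe set, 59.4% were negative, 8.95% lower and 2.91% higher at that level. The lymphocyte markers CD3D, CD3E, CD3G and CD4 and the fat cell markers ADIPOQ and LEP lay below the filter. The 2 of 8 lymphocyte markers above it ranged from 3.40 to 3.97 after stem cells and from 3.50 to 4.06 after saline, the 3 of 7 fat cell markers from 9.39 to 10.1 after stem cells and from 9.20 to 9.91 after saline, and the 3 of 4 red blood cell markers from 5.67 to 6.78 after stem cells and from 5.56 to 6.83 after saline. The EF1A control ratio (log2, 3' over 5' probe set), which rises as RNA degrades, was 0.81 ± 0.11 after stem cells (SD, n = 7) and 0.95 ± 0.098 after saline (SD, n = 6), with an exact two-sided permutation p of 0.046 (0.138 adjusted over 3 control ratios). The actin ratio averaged 2.89 ± 1.11 in stem cell animals and 3.13 ± 0.74 in saline animals, and the GAPDH ratio 0.53 ± 0.36 in stem cell animals and 0.52 ± 0.33 in saline animals (SD; exact permutation p of 0.664 for actin and 0.959 for GAPDH). The part of these measures in the results below was not tested beyond the fits with a covariate. Arrays correlated pairwise at 0.936 to 0.986.

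Differences are given as log2 intensity, stem cells minus saline, from limma fitted across all 14399 probe sets tested. No member, and no other probe set, passed an adjusted p of 0.05 (0% of all probe sets; the smallest adjusted p of a member was 0.393 by limma and 0.398 by exact permutation, which also called 0 members). What follows therefore describes sizes and unadjusted p, and no single gene is established as changed. At an unadjusted p under 0.05, 10 of the 39 members (25.6%) were lower after stem cells, against 5.15% of all probe sets and 8.95% of the 5196 named genes by their leading probe set. The 10 were TOMM5, TOMM7, TIMM50, TIMM8B, TIMM10, TIMM10B, TIMM13, SLC25A11, SLC25A33 and SLC25A39. SLC25A36 was the 1 member higher at that level, against 5.4% of all probe sets and 2.91% of named genes. By sign 28 of the 39 (71.8%) were negative, against 47.2% of all probe sets and 59.4% of named genes. The median over the 39 members was -0.056, close to the -0.054 over all named genes (0.017 over all probe sets). By role, 4 of 6 small TIM chaperones, 2 of 6 TOM genes, 1 of 4 TIM23 genes and 3 of 15 carriers outside the ADP/ATP and phosphate group were among the 10, and none of the porins or of the ADP/ATP and phosphate carriers was. In biopsies, fewer cells of a type and less RNA per cell cannot be told apart.

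The count of 10 depended on single animals. With 1 animal left out it was 5 without stem cells replicate 2, 3 or 4 (4.08%, 4.15% and 5.01% of all probe sets lower in those fits), 4 without saline replicate 3 (4%) and 6 without saline replicate 6 (4.1%), and 7 to 11 otherwise (3.72% to 6.22%). It was 4 with the EF1A ratio as a covariate (TIMM8B, TIMM13, TIMM50 and SLC25A33, against 5.08% of all probe sets), 6 by exact permutation (5.1%), and 10 with a covariate for the balance of cardiomyocyte and scar matrix markers (5.74%). By exact permutation TOMM7, TIMM10B, TIMM13 and SLC25A11 were lost, at p of 0.065, 0.069, 0.053 and 0.0897. The median was unstable too: with 1 animal left out it lay between -0.153 and -0.012, it was -0.131 with array weights (0.0050 over all probe sets) and -0.182 with the EF1A covariate (-0.013 over all probe sets).

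**Figure D1:**
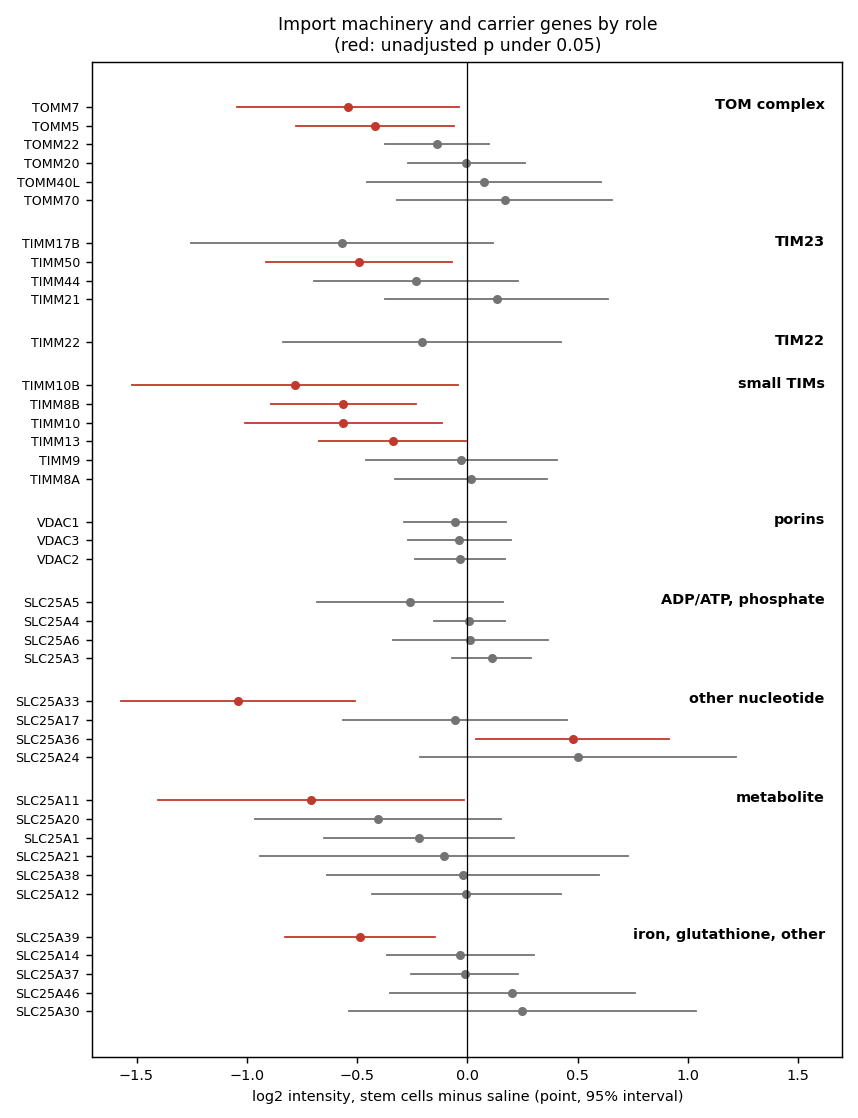
Difference in log2 intensity, stem cells minus saline, for the 39 tested genes grouped by role; points are estimates, bars 95% intervals from limma, red marks an unadjusted p under 0.05. Of the 6 small TIM genes 4 lie left of 0 with their interval (8.95% of all named genes were lower at an unadjusted p under 0.05, limma). The leading probe sets of all 3 porins lie within 0.06 of 0. Another VDAC2 probe set, not drawn here, was at -0.49.

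Small TIM chaperones held the densest group, with 4 of 6 members lower at an unadjusted p under 0.05, 5 of 6 negative and a median of -0.45. Of all named genes, 8.95% were lower at that level and 59.4% negative. TIMM8B, a paralog of the deafness-dystonia protein TIMM8A, had log2 intensities from 10.46 to 11.26 with a median of 10.63 in stem cell animals, against 11.19 to 11.58 with a median of 11.25 in saline animals. Of the 7 stem cell animals, 6 lay below every saline animal and 1 lay inside the saline range. The difference was -0.56 ± 0.15 (SE), a fold of 0.677, with an unadjusted p of 0.00232 and an adjusted p of 0.393 (limma). It kept an unadjusted p under 0.05 in 13 of 13 fits with 1 animal left out.

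TIMM10, which forms a hexamer with TIMM9 that escorts carrier precursors, ranged from 8.45 to 9.42 with a median of 8.68 after stem cells and from 8.72 to 9.66 with a median of 9.54 after saline. The groups overlapped: 4 stem cell animals were below all saline animals, and 1 saline animal was among the low ones. The difference was -0.56 ± 0.21 (SE). TIMM10B, which joins the small TIMs to the TIM22 complex, was the most variable of the group, from 5.33 to 7.23 (median 5.99) after stem cells and from 6.29 to 7.75 (median 7.08) after saline, a difference of -0.78 ± 0.35 (SE). TIMM13, whose partner in the second hexamer is TIMM8A, ranged from 10.33 to 11.07 (median 10.91) after stem cells and from 10.75 to 11.46 (median 11.19) after saline, a difference of -0.34 ± 0.16 (SE), with 7 of 7 stem cell animals below the saline mean. TIMM10B and TIMM13 kept an unadjusted p under 0.05 in 5 and 6 of the 13 fits with 1 animal left out, TIMM10 in 13. By exact permutation the p was 0.069 for TIMM10B, 0.053 for TIMM13 and 0.033 for TIMM10.

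TIMM9 and TIMM8A, the partners named above for TIMM10 and TIMM13, stood near 0. TIMM9 ranged from 9.38 to 10.49 (median 10.17) after stem cells and from 9.43 to 10.46 (median 10.06) after saline, a difference of -0.027 ± 0.20 (SE). TIMM8A ranged from 9.32 to 10.14 (median 9.61) after stem cells and from 9.45 to 10.10 (median 9.59) after saline, a difference of 0.015 ± 0.16 (SE). Both 95% intervals, -0.46 to 0.41 for TIMM9 and -0.33 to 0.36 for TIMM8A, would still hold a moderate change in either direction.

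The difference between 2 genes within each array is given for 6 pairs as a description with no test, since the pairs were chosen after their values had been seen. TIMM10 minus TIMM9 was -1.20 ± 0.42 after stem cells (SD, n = 7) and -0.67 ± 0.15 after saline (SD, n = 6). TIMM8B minus TIMM8A was 1.07 ± 0.52 after stem cells and 1.65 ± 0.22 after saline, and TIMM13 minus TIMM8A was 1.09 ± 0.47 after stem cells and 1.44 ± 0.27 after saline (SD, n = 7 and 6). The stem cell animals spread more widely than the saline animals in all 3 of these pairs, and the groups overlapped in each.

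**Figure D2:**
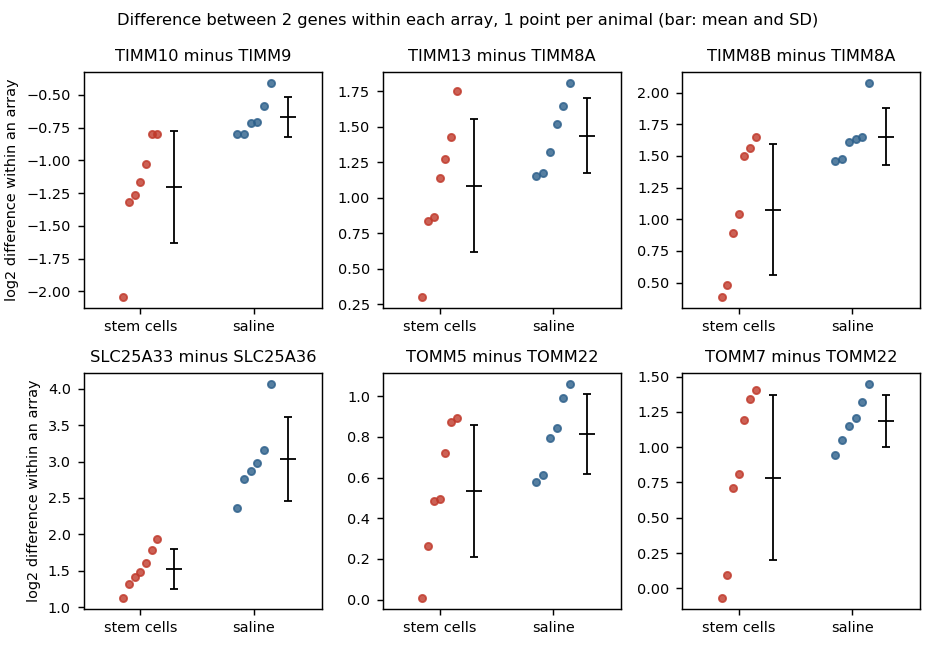
Difference in log2 intensity between 2 genes within each array, for 7 stem cell animals (left, red) and 6 saline animals (right, blue), with mean and SD. The pairs were chosen after their values had been seen; the groups are apart for SLC25A33 minus SLC25A36, whose members differ in opposite directions, overlap at their edges for TIMM10 minus TIMM9, and overlap for the other 4 pairs.

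In the TOM complex, 2 small subunits of the 6 tested genes were lower at an unadjusted p under 0.05 (8.95% of named genes were), and the receptors were not. TOMM7, a small subunit that modulates the stability of the complex, ranged from 10.84 to 12.26 (median 11.44) after stem cells and from 11.89 to 12.58 (median 12.05) after saline. In 4 animals given stem cells it was lower than in any saline animal and in the other 3 it was within their range, giving a difference of -0.54 ± 0.24 (SE). TOMM5, a small subunit beside the import pore, ranged from 10.93 to 11.81 (median 11.34) after stem cells and from 11.41 to 12.12 (median 11.69) after saline, a difference of -0.42 ± 0.17 (SE). It was below all saline animals in 4 stem cell animals. TOMM7 kept an unadjusted p under 0.05 in 7 and TOMM5 in 10 of the 13 fits with 1 animal left out. With the replicate block, over the 6 numbers both groups share and so without stem cells replicate 7, TOMM5 was at -0.45 with an unadjusted p of 0.0589 (limma). With the EF1A covariate TOMM5 was at -0.17 and TOMM7 at -0.42, with unadjusted p of 0.356 and 0.171 (limma).

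TOMM20 and TOMM22 are the receptors for presequences. TOMM20 ranged from 11.29 to 11.85 (median 11.62) after stem cells and from 11.23 to 11.86 (median 11.58) after saline, a difference of -0.0047 ± 0.12 (SE). TOMM22 ranged from 10.58 to 10.92 (median 10.81) after stem cells and from 10.57 to 11.13 (median 10.98) after saline, a difference of -0.14 ± 0.11 (SE), with 7 of 7 stem cell animals below the saline mean. TOMM70, the receptor for carrier precursors, ranged from 7.17 to 8.41 (median 7.48) after stem cells and from 7.11 to 8.06 (median 7.47) after saline, a difference of 0.17 ± 0.23 (SE; 0.049 to 0.275 with 1 animal left out). TOMM40L, a paralog of the pore protein TOMM40, was at 0.075 ± 0.25 (SE). TOMM40 itself, like TIMM23, had no probe set under its symbol and was not analysed here. Within arrays TOMM5 minus TOMM22 was 0.53 ± 0.33 after stem cells and 0.81 ± 0.20 after saline, and TOMM7 minus TOMM22 was 0.78 ± 0.59 after stem cells and 1.19 ± 0.18 after saline (SD, n = 7 and 6), with overlapping groups in both and no test.

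Of the TIM23 genes, 3 of 4 were negative and 1 was lower at an unadjusted p under 0.05, against 59.4% and 8.95% of named genes. TIMM50, which receives precursors on the intermembrane side of the channel, ranged from 7.59 to 8.81 (median 8.34) after stem cells and from 8.46 to 8.93 (median 8.73) after saline. In 5 of 7 stem cell animals it lay below all saline animals, and the difference was -0.49 ± 0.20 (SE). It kept an unadjusted p under 0.05 in 9 of the 13 fits with 1 animal left out. Its second probe set pointed the same way at -0.37 ± 0.24 (SE). TIMM17B, a subunit of the channel itself, was the widest, from 5.42 to 7.41 (median 6.71) after stem cells and from 6.54 to 7.64 (median 7.09) after saline, a difference of -0.57 ± 0.32 (SE) that did not reach an unadjusted p of 0.05; with the replicate block it was -0.69 with an unadjusted p of 0.0474 (limma). TIMM44, which tethers the import motor to the channel, ranged from 4.99 to 6.21 (median 5.82) after stem cells and from 5.72 to 6.08 (median 5.86) after saline, a difference of -0.23 ± 0.22 (SE). Its stem cell animals lay on both sides of the saline range, 3 below it and 2 above, and its second probe set was at 0.29 ± 0.27 (SE). TIMM21, which links TIM23 to the TOM complex, was at 0.13 ± 0.24 (SE). TIMM22, the core of the carrier translocase and its 1 member here, ranged from 4.68 to 5.79 (median 5.29) after stem cells and from 4.47 to 6.11 (median 5.57) after saline, a difference of -0.20 ± 0.30 (SE; -0.388 to -0.059 with 1 animal left out).

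**Figure D3:**
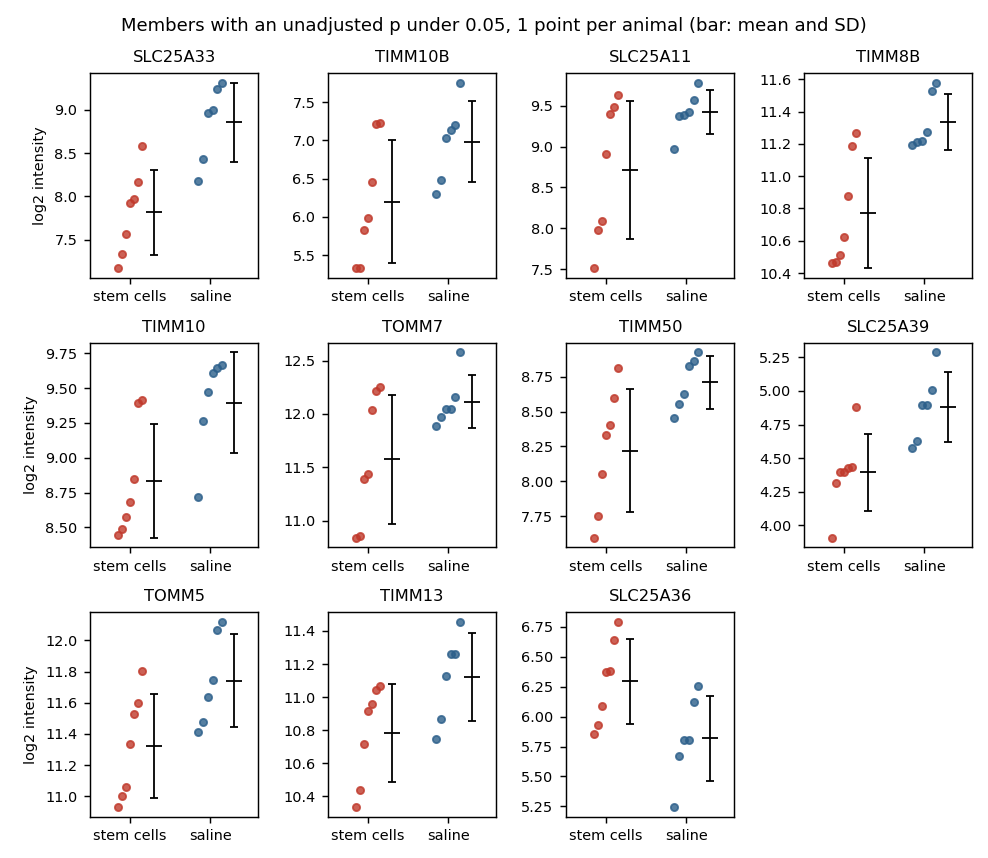
Log2 intensity by animal for the 11 members with an unadjusted p under 0.05, stem cells (7 animals, red) left of saline (6 animals, blue), with mean and SD. The groups overlap in every panel; in SLC25A33, TIMM8B and SLC25A39 1 stem cell animal lies inside the saline range and 6 lie below it.

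The porins, by their leading probe sets, and the ADP/ATP carriers SLC25A4 and SLC25A6 had differences near 0. VDAC1 ranged from 11.82 to 12.46 (median 12.03) after stem cells and from 12.01 to 12.25 (median 12.11) after saline, a difference of -0.056 ± 0.11 (SE). VDAC3 ranged from 12.10 to 12.78 (median 12.46) after stem cells and from 12.31 to 12.73 (median 12.49) after saline, a difference of -0.036 ± 0.11 (SE). VDAC2, by its leading probe set, ranged from 12.64 to 13.25 (median 12.94) after stem cells and from 12.88 to 13.15 (median 12.97) after saline, a difference of -0.033 ± 0.096 (SE). The 95% intervals of the 3 leading probe sets reached from -0.29 to 0.20. In each of them the saline animals lay inside the spread of the stem cell animals.

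SLC25A4, the ADP/ATP carrier of heart and skeletal muscle, ranged from 14.58 to 15.04 (median 14.76) after stem cells and from 14.70 to 14.93 (median 14.80) after saline, a difference of 0.0088 ± 0.075 (SE; 95% interval of -0.15 to 0.17). SLC25A3, which brings in phosphate for ATP synthesis, ranged from 13.70 to 14.18 (median 13.90) after stem cells and from 13.67 to 13.98 (median 13.79) after saline, a difference of 0.11 ± 0.084 (SE). SLC25A6 ranged from 12.17 to 13.14 (median 12.65) after stem cells and from 12.14 to 12.99 (median 12.75) after saline, a difference of 0.013 ± 0.17 (SE). SLC25A5 was the 1 negative member of these 4, from 6.77 to 7.85 (median 7.39) after stem cells and from 7.06 to 8.03 (median 7.71) after saline, a difference of -0.26 ± 0.20 (SE). These isoforms of the ADP/ATP carrier are close in sequence, and whether a probe set reads more than 1 of them was not tested.

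**Figure D4:**
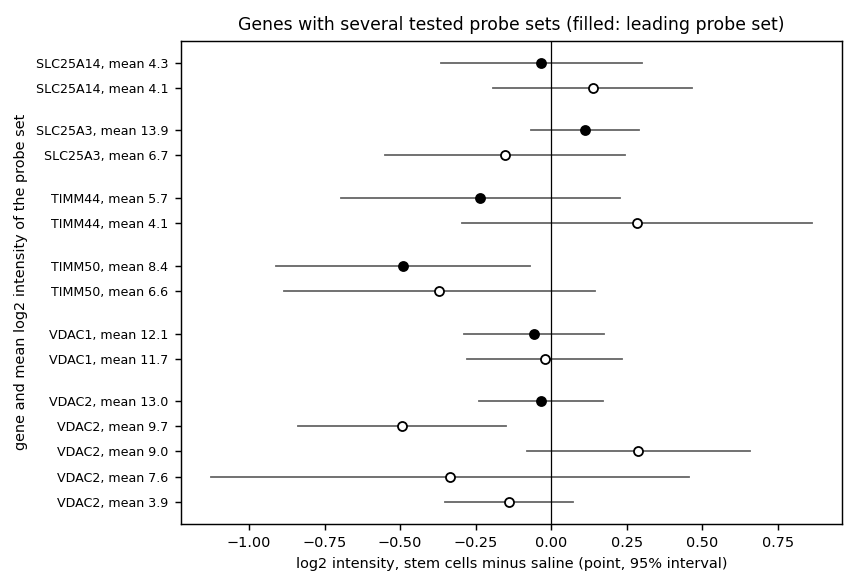
Difference in log2 intensity, stem cells minus saline, with 95% interval, for the 6 genes with several tested probe sets; filled points lead, and the mean log2 intensity of each probe set stands beside the gene. Probe sets of TIMM50 and VDAC1 point one way, those of the other 4 genes do not.

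Probe sets of 1 gene did not always go together. Among the 6 genes with several tested probe sets, all signs were alike in 2. VDAC2 had 5 tested probe sets. Its leading probe set was near 0, the next one was at -0.49 ± 0.16 (SE, unadjusted p of 0.00802, adjusted 0.41, limma), and the others were at 0.29 ± 0.17, -0.33 ± 0.37 and -0.14 ± 0.10. No statement on VDAC2 as a whole can rest on its leading probe set alone. For SLC25A3 the second probe set was at -0.15 ± 0.19, and for SLC25A14 at 0.14 ± 0.15 (SE).

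Among the other nucleotide and cofactor carriers stood the member with the smallest p. SLC25A33, which carries pyrimidine nucleotides needed for mitochondrial DNA and RNA synthesis, ranged from 7.17 to 8.58 (median 7.92) after stem cells and from 8.17 to 9.31 (median 8.98) after saline. In 6 of 7 stem cell animals it lay below all saline animals. The difference was -1.04 ± 0.25 (SE), a fold of 0.487, with an unadjusted p of 0.000793 and an adjusted p of 0.393 (limma; exact permutation p of 0.00524). It kept an unadjusted p under 0.05 in all 26 alternative fits, with differences from -1.17 to -0.82, and its adjusted p lay between 0.246 and 0.804 in them. Its second probe set lay below the filter.

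SLC25A36, the other pyrimidine nucleotide carrier on the array, went the opposite way. It ranged from 5.86 to 6.79 (median 6.37) after stem cells and from 5.24 to 6.26 (median 5.81) after saline, with 4 of 7 stem cell animals above all saline animals and 7 of 7 above the saline mean. The difference was 0.48 ± 0.21 (SE; unadjusted p of 0.034, adjusted 0.446, limma), and it stayed positive in all 26 alternatives but kept an unadjusted p under 0.05 in 15 of them and in 5 of 13 fits with 1 animal left out. Its unadjusted p was 0.0944 with the EF1A covariate and 0.0597 with the replicate block (limma). SLC25A33 minus SLC25A36 within arrays was 1.52 ± 0.28 after stem cells (SD, n = 7) and 3.04 ± 0.57 after saline (SD, n = 6). The 7 stem cell animals lay at 1.12 to 1.93 and the 6 saline animals at 2.37 to 4.07. The pair sets the member with the lowest difference against the 1 member higher at an unadjusted p under 0.05, so a gap between the groups follows in large part from that choice, and no test is given. No single member had groups that did not overlap (0.16% of all probe sets had stem cell values wholly under the saline values, 0.118% wholly above).

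SLC25A24, a calcium-regulated carrier of ATP-magnesium and phosphate, ranged from 7.16 to 8.99 (median 7.65) after stem cells and from 6.70 to 7.98 (median 7.68) after saline. Its medians were alike, 3 stem cell animals lay above the saline range, and the difference was 0.50 ± 0.34 (SE). Without stem cells replicate 4 it was 0.332. With the replicate block, and so without stem cells replicate 7, it was 0.637 with an unadjusted p of 0.011 (limma). Without that animal and without the block the difference was also 0.637, with an unadjusted p of 0.0778 (limma). Over all arrays the unadjusted p was 0.157 (limma). SLC25A17, a peroxisomal carrier of cofactors, was at -0.056 ± 0.24 (SE).

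All 6 tested metabolite and amino acid carriers were negative, with a median of -0.16, and 1 was lower at an unadjusted p under 0.05. Of all named genes, 59.4% were negative and 8.95% lower at that level. SLC25A11, the oxoglutarate carrier of the malate-aspartate shuttle, ranged from 7.51 to 9.63 (median 8.90) after stem cells and from 8.97 to 9.78 (median 9.41) after saline. The stem cell animals were split, with 4 below all saline animals and 3 among them. The difference was -0.71 ± 0.32 (SE), with an unadjusted p under 0.05 in 4 of 13 fits with 1 animal left out. SLC25A12, the aspartate-glutamate carrier of the same shuttle, ranged from 9.40 to 10.79 (median 10.02) after stem cells and from 9.77 to 10.65 (median 10.06) after saline, a difference of -0.0062 ± 0.20 (SE). It kept its sign in 19 of 26 alternatives and was at 0.112 without stem cells replicate 4.

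SLC25A20, which brings acylcarnitines in for fatty acid oxidation, ranged from 6.70 to 8.13 (median 7.52) after stem cells and from 7.15 to 8.68 (median 7.79) after saline, a difference of -0.41 ± 0.26 (SE) that was -0.233 without saline replicate 1. SLC25A1, the citrate carrier, ranged from 4.67 to 5.75 (median 5.24) after stem cells and from 4.94 to 5.85 (median 5.43) after saline, a difference of -0.22 ± 0.20 (SE). It was -0.131 without stem cells replicate 2 and -0.136 without saline replicate 4. SLC25A21, a carrier of oxodicarboxylates, was at -0.11 ± 0.39 and SLC25A38, which imports glycine for haem synthesis, at -0.021 ± 0.29 (SE); both changed sign in some alternatives.

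Of the remaining carriers, SLC25A39, which is needed for glutathione in mitochondria, was lower at an unadjusted p under 0.05. It ranged from 3.91 to 4.88 (median 4.40) after stem cells and from 4.57 to 5.29 (median 4.89) after saline, with 6 of 7 stem cell animals below all saline animals. The difference was -0.49 ± 0.16 (SE), with an unadjusted p of 0.00799 and an adjusted p of 0.41 (limma), and it kept an unadjusted p under 0.05 in 13 of 13 fits with 1 animal left out. Its probe set was dim, not far above the filter level of 3.36. SLC25A30 ranged from 5.71 to 8.07 (median 7.04) after stem cells and from 6.00 to 8.02 (median 6.67) after saline, a difference of 0.25 ± 0.37 (SE; 0.063 to 0.513 with 1 animal left out). SLC25A46, an outer membrane protein of mitochondrial fusion and fission, ranged from 4.66 to 6.33 (median 5.59) after stem cells and from 4.71 to 5.75 (median 5.35) after saline, a difference of 0.20 ± 0.26 (SE; 0.062 to 0.339 with 1 animal left out). The iron carrier SLC25A37 was at -0.013 ± 0.11 and SLC25A14 at -0.033 ± 0.16 (SE).

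**Figure D5:**
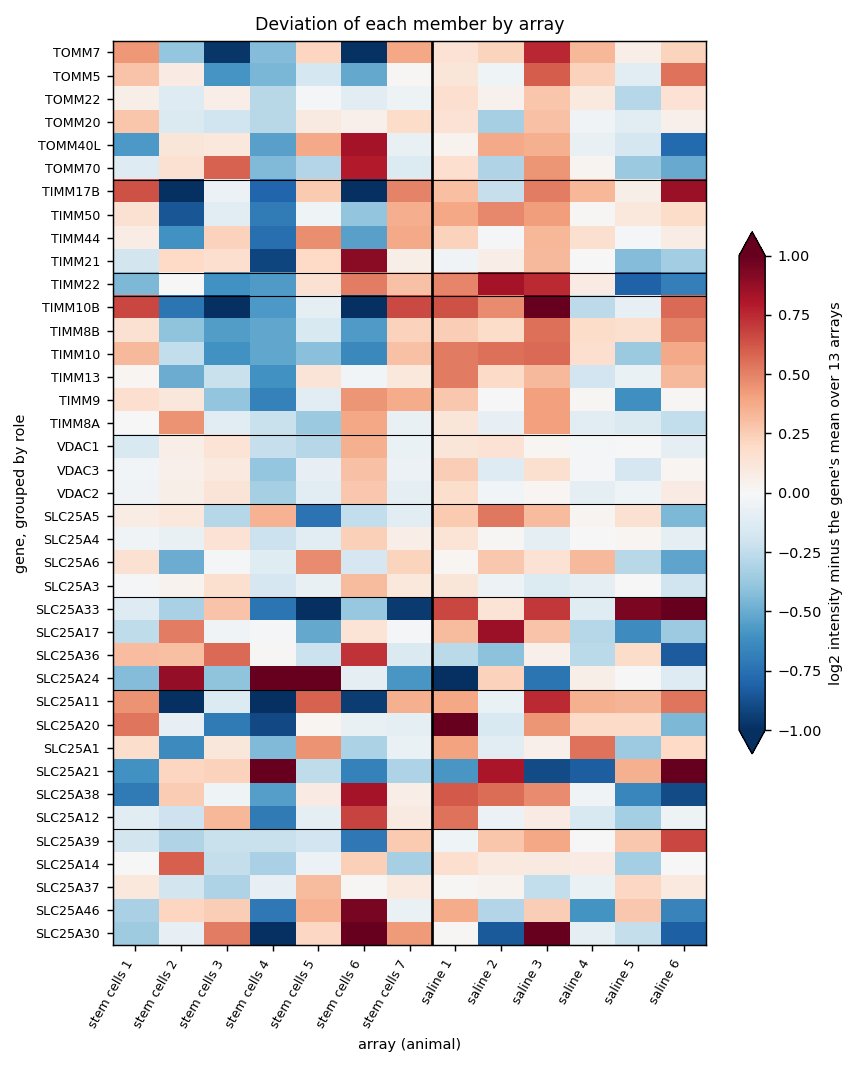
Log2 intensity of each tested member minus its mean over 13 arrays, stem cell animals left of the black line and saline animals right of it, genes grouped by role; colours end at 1 in either direction. Stem cells replicate 4 lies below the mean (blue) in 35 of 39 rows, and saline replicates 1 and 3 lie above it (red) in 34 rows each. These counts cover the members only, and whether they go beyond an offset of the whole array was not tested. No value of the 3 porins or SLC25A4 lies more than 0.385 from its mean.

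The animals of a group were not alike. Stem cells replicate 4 held the lowest of the 13 values in 12 of 39 members (30.8%, against 8.72% of all probe sets), and stem cells replicate 6 held the highest in 14 and the lowest in 5 (19.5% and 10.7% of all probe sets). Saline replicate 3 held the highest in 8 (7.5% of all probe sets). Of the 10 members lower at an unadjusted p under 0.05, stem cells replicates 2, 3, 4 and 6 were below the saline mean in 10, replicate 5 in 9, replicate 7 in 6 and replicate 1 in 5. Since those 10 were picked for lower stem cell values, this describes the spread within the group only. With stem cells replicates 4 and 6 both left out, 3 members were lower at an unadjusted p under 0.05, against 2.94% of all probe sets in that fit: SLC25A33, SLC25A39 and TIMM8B, at -1.01, -0.39 and -0.45.

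Of 35 further genes of import, protein sorting and transport whose symbols lie outside the rule, 24 were on the array and 23 were tested. By sign, 18 of 23 (78.3%) were negative, against 47.2% of all probe sets and 59.4% of named genes, with a median of -0.11. At an unadjusted p under 0.05, 3 (13%) were lower, against 5.15% of all probe sets and 8.95% of named genes, and 0 were higher; 0 passed the adjusted threshold (limma). ROMO1, a small inner membrane protein linked to the import channel, ranged from 7.80 to 10.81 (median 9.52) after stem cells and from 9.99 to 10.88 (median 10.48) after saline, a difference of -1.20 ± 0.45 (SE). MPC2, a subunit of the pyruvate carrier, was at -0.27 ± 0.10 and APOO of the cristae-organising complex at -0.45 ± 0.20 (SE). MIPEP, a peptidase that trims imported precursors, was at -0.55 ± 0.28 (SE). It was not among the 3 lower genes (unadjusted p of 0.0659, limma). HSPA9, the ATPase of the import motor, was at 0.00015 ± 0.13 (SE) and is named after its value was seen.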

How the data were processed

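Total RNA was labelled with biotin and hybridised to Affymetrix porcine arrays, 1 per animal, per the labels' protocols. The intensities deposited, 1 per probe set and not on a log scale, came from GCRMA (background correction, normalization between arrays, summary of probes), run by the authors per the submitters' processing notes; its version, its settings and the step back from log2 are not stated there. Normalization between arrays hides a change shared by most genes. Precision is limited by the number of arrays.

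Of 24123 probe sets, 124 controls were left out. Values were put on the log2 scale, and the 14399 probe sets with a mean above the 40th percentile (log2 of 3.36) were tested with limma 3.58.1 in R 4.3.3 (lmFit, eBayes with trend), with Benjamini-Hochberg adjustment over all of them. Symbols came from the platform annotation (10069 probe sets with 1 symbol, 198 with several, 13732 with none) and were matched by gene ID to the pig assembly Sscrofa11.1 for all 57 member probe sets. No genome build is stated for the array, so no coordinates are given. Exact permutation tests, two-sided, used all 1716 splits of 13 arrays. The fit was tested on simulated data with planted differences larger than nearly all member differences, so that test does not measure power at the sizes reported here.

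Members, roles and lists were chosen with earlier results of these data known. Values by array were given for the 3 tested members of each role with the smallest p and for textbook members, 29 genes in all, and by difference for the others; TIMM13, TIMM9 and TIMM8A were added after their values were seen. Alternatives were other filters, normalizations, variance models, covariates, array weights, probe set means, a replicate block and each animal left out; the permutation test and 2 arrays left out together were chosen after seeing the data. No batch is given in the labels.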

Additional observations from a re-analysis of the deposited data

Results flagged for a closer look

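Among 78 groups of values (39 members in 2 treatments), 1 held an animal far from the others: SLC25A14 in saline replicate 5, at a log2 intensity of 3.98, with the next animal at 4.33 and the highest of the group at 4.49. Chance flags about 1 in 20 groups.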

How the results depend on the processing

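In all 26 alternatives, 0 members passed the adjusted threshold (limma, or exact permutation). Members lower at an unadjusted p under 0.05 numbered 10 as reported, against 5.15% of all probe sets. They numbered 6 with array weights (4.61% of all probe sets in that fit) and 6 by exact permutation (5.1%). With the EF1A ratio as a covariate they numbered 4 (5.08%), and with stem cells replicates 4 and 6 both left out 3 (2.94%). With 1 animal left out they numbered 4 to 11 (3.72% to 6.22%). Members higher numbered 1 as reported, against 5.4% of all probe sets. They numbered 2 with the tissue makeup covariate and 0 with the EF1A covariate or with both arrays left out. With 1 animal left out they numbered 0 to 1. Members with a negative difference numbered 28 as reported, against 47.2% of all probe sets. With 1 animal left out they numbered 21 to 32, and the median lay between -0.153 and -0.0122. The causes were not tested. All 10 lower members stayed negative in every alternative, and 21 of the 39 members kept their sign throughout. The replicate block ran over the 6 numbers both groups share and so without stem cells replicate 7. It gave 10 lower members, against 4.9% of all probe sets in that fit. Of these, 9 were among the 10 reported (TOMM5 was lost and TIMM17B gained). It gave 1 higher member, SLC25A24 in place of SLC25A36. TIMM17B was under an unadjusted p of 0.05 without stem cells replicate 7 and without the block too (limma). The labels do not say that numbers pair animals, the deviations of same-numbered animals correlated at -0.266 to 0.237, and 1 of 12 arrays correlated best with their own number. Dim probe sets near the filter (SLC25A39, SLC25A14, SLC25A37) are limited by signal over background.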
